A study of Mus musculus with 16 samples.

Results

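Mitochondrial beta-oxidation enzymes were followed in whole-hippocampus RNA sequencing of 16 female mice, by taking the genes of the raw count table named Cpt1a, Cpt1c, Cpt2, Acadm, Acadl, Acadvl, Acads, Hadha, Hadhb and Hadh. All 10 names were found among the 55335 genes of the table, and all 10 were among the 16475 genes with enough counts to be tested. The study asked what an inhibitor of stearoyl-CoA desaturase, the enzyme that turns saturated into monounsaturated fatty acids, does in the brain of a mouse model of Alzheimer's disease. The 4 groups held 4 mice each and combined a genotype with an infusion.

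The 3xTg-AD mice carry human APPSwe and tauP301L transgenes, which the neuron-specific mouse Thy1.2 element drives. WT mice were strain controls labelled C57BL/6J x 129S1, bred separately and not littermates, so genotype and breeding line cannot be told apart. All 16 mice were 10 months old by their labels and carried an intracerebroventricular cannula with an osmotic pump for 28 days. The WT-D and 3xTg-D mice received vehicle, 0.8% DMSO in artificial cerebrospinal fluid. The WT-S and 3xTg-S mice received the inhibitor CAY10566 at 80 µM in the same vehicle. No unoperated mice entered these comparisons, so the controls share the pump, the cannula and the DMSO.

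Fatty acids enter the mitochondrial matrix by the carnitine shuttle and are then shortened in a cycle of 4 reactions, namely dehydrogenation, hydration, a second dehydrogenation and thiolysis. Each turn releases acetyl-CoA. Separate enzymes serve long, medium and short chains, and many of the genes are known targets of the nuclear receptor PPARα. In the brain this pathway is known mainly from astrocytes, while neurons use it little.

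The genes lie on several chromosomes, and 2 of them share a start region. On GRCm38, Hadha (ENSMUSG00000025745.12, chr5:30118304-30155162, minus strand) and Hadhb (ENSMUSG00000059447.13, chr5:30155248-30184593, plus strand) encode the alpha and beta subunits of the mitochondrial trifunctional protein and are transcribed away from each other. Only 85 bases separate them in the Gencode M21 annotation. This intergenic stretch, chr5:30155163-30155247, is shown because both subunits of 1 complex start at its ends in that annotation. It is given on the plus strand, from RefSeq (GRCm38.p6), with GGGCGG boxes, the letters bound by Sp1-type factors, in capitals.
Hadha-Hadhb: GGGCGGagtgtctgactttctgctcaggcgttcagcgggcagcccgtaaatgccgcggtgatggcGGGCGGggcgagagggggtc
Both boxes of this stretch read in the direction of Hadhb. Their letters, on either strand, occurred in the 300-base start windows of 8 of the 10 genes (all but Acadm and Acadvl) and in 35.7% of 32851 RefSeq windows, which run from 250 bases before to 50 bases after each start. The Hadha window held 1 match and the Hadhb window 4, so the Hadha window does not hold both boxes shown.

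The Cpt1a stretch is shown because Cpt1a (ENSMUSG00000024900.5, chr19:3322334-3385733, plus strand) was the member that passed the test between genotypes. The printed bases, chr19:3323051-3323284 on the plus strand, end just before the RefSeq start at 3323301. They lie between the annotated exons at 3322334 to 3322698 and 3323285 to 3323374, hence within an intron of transcripts that use the earlier start. The capitals mark a match to AGGTCA on the opposite strand, the half-site letters of PPAR and other nuclear receptors.
Cpt1a: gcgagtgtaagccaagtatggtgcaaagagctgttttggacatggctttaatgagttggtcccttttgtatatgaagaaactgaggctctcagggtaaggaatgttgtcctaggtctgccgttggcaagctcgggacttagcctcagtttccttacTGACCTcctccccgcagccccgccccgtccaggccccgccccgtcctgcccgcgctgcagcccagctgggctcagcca
AGGTCA occurred on either strand in the windows of 4 of the 10 genes, Cpt1a, Cpt1c, Acadm and Acadvl, and in 16.3% of all windows. The full PPAR letters, 2 AGGTCA half-sites spaced by 1 base, were in 0 of the 10 windows and in 0.0396% of all windows. These windows cover only the bases next to the start.

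The libraries held 15413385 to 23590149 reads on genes, and each member had between 45 counts (Acads, lowest mouse) and 1982 counts (Hadha, highest mouse). Reads outside genes made up 7.82 to 15.1% of uniquely aligned reads, with the 3xTg-S mouse 4 highest and the 3xTg-S mouse 2 lowest. All 8 hippocampal neuron markers were detected in every mouse, with summed levels of 4685 to 5932 CPM (read counts scaled to a common library size). Choroid plexus markers summed to 758 CPM in the WT-D mouse 4 and 303 CPM in the WT-S mouse 1, against a median of 37.8 CPM over the 16 mice. Fewer cells of a type and less RNA per cell cannot be told apart in whole tissue.

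Per length, Cpt1c and the long-chain dehydrogenase were the most abundant members, and the short-chain dehydrogenase and Cpt2 the least. CPT1C is a brain isoform with little transferase activity. Levels were set as CPM per kb of the longest coding transcript, averaged over the 16 mice. Cpt1c stood at 27.9 ± 2.43 CPM per kb (SD, n = 16) and Acadl at 25.7 ± 2.78. Hadha (19.8 ± 1.05), Acadm (17.9 ± 1.39), Acadvl (15.5 ± 1.01) and Hadh (13.2 ± 1.66) followed. Hadhb (9.14 ± 0.844) and Cpt1a (7.56 ± 0.706) were lower, and Acads (2.11 ± 0.413) and Cpt2 (2.06 ± 0.286) came last. In this order each gene's range over the 16 mice overlapped that of its next neighbour, except for the step from Cpt1a (lowest mouse 6.40) to Acads (highest mouse 3.01). Dividing by the length of all annotated exons put Acadl first, at 24.6 CPM per kb, and Cpt1c second, at 13.9, and moved Acadvl to rank 3. For the subunits with the shared start region, Hadha and Hadhb, the exon lengths gave 9.12 and 2.84 CPM per kb, so their ratio depends on the length chosen.

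**Figure D1:**
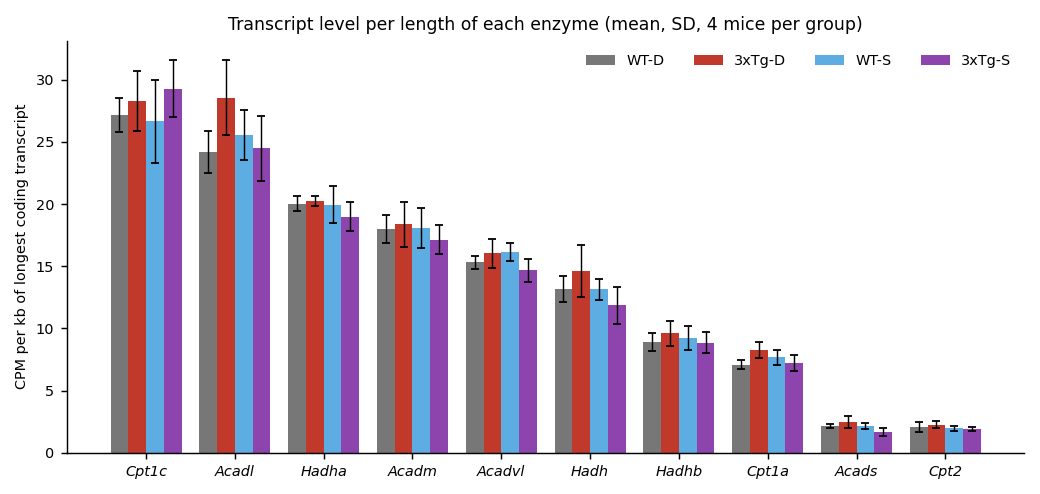
Bars give the mean CPM per kb of the longest coding transcript in each group (4 mice, error bars SD), ordered by the mean over 16 mice. Cpt1c and Acadl stand highest, at 27.9 and 25.7 CPM per kb over all mice, and Acads and Cpt2 lowest, at 2.11 and 2.06.

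Cpt1a, the outer-membrane carnitine palmitoyltransferase that sets the rate of long-chain entry, was higher in 3xTg-D than in WT-D hippocampus. Its level was 29.3, 32.3, 29.2 and 31.5 CPM in the WT-D mice 1 to 4 and 36.1, 39.4, 34.7 and 32.8 CPM in the 3xTg-D mice 1 to 4. Every 3xTg-D mouse was above every WT-D mouse, which of the 10 held for Cpt1a alone, while 8.17% of all tested genes had groups that did not overlap. The means were 35.7 ± 2.80 and 30.6 ± 1.58 CPM (SD, n = 4 each). The log2 difference was 0.23 (SE 0.069, 95% interval 0.07 to 0.38), with unadjusted p = 0.00775 and adjusted p = 0.177 in edgeR's quasi-likelihood test. Here a call means an unadjusted p no higher than 0.01. Cpt1a was the only member called in this comparison, 1 of 10, where 4.91% of all tested genes were called, and 2.44% were called and higher in 3xTg-D. A single call among 10 genes is near that background and is no result about the group as a whole. At an adjusted p of 0.05, 0 members and 1.85% of all genes passed. DESeq2 likelihood ratio tests also called 1 member.

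The Cpt1a call depended on which mice were kept. It was lost without the WT-D mouse 1, 3 or 4, with edgeR adjusted p-values of 0.372, 0.361 and 0.284. It was lost too without the 3xTg-D mouse 1, 2 or 3, with edgeR adjusted p-values of 0.312, 0.270 and 0.286. It also missed the threshold with the share of reads outside genes as a covariate, where the log2 difference was 0.17 (edgeR adjusted p = 0.451). The difference stayed above 0 in every one of these fits, with 0.17 as the lowest value.

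Acadl, the long-chain acyl-CoA dehydrogenase, had the largest log2 difference of the 10 between 3xTg-D and WT-D and just missed the threshold. The WT-D mice 1 to 4 stood at 42.1, 50.1, 47.0 and 46.2 CPM and the 3xTg-D mice 1 to 4 at 52.0, 62.8, 54.3 and 49.6 CPM. The groups overlapped by 1 mouse, since the lowest 3xTg-D mouse lay under the highest WT-D mouse. The log2 difference was 0.24 (SE 0.082, 95% interval 0.06 to 0.42, unadjusted p = 0.0140, edgeR adjusted p = 0.240). With each of the 8 mice left out in turn, Acadl was called 1 time, without the 3xTg-D mouse 4 (edgeR adjusted p = 0.153). That mouse had the lowest level of its group. Without the 3xTg-D mouse 2, the highest of its group, the log2 difference was 0.165 and Acadl was not called.

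Like Acadl, the other 8 enzymes did not pass the test between these genotypes. Cpt1a and Acadl were the 2 members with an unadjusted p under 0.05 in edgeR, where 12.6% of all tested genes had one. Acads, the short-chain dehydrogenase, had a log2 difference of 0.21 (95% interval -0.15 to 0.57) and Hadh, the 3-hydroxyacyl-CoA dehydrogenase for shorter chains, of 0.16 (-0.07 to 0.39). Cpt2, the inner-membrane transferase, stood at 0.12, Hadhb, which carries the thiolase of the trifunctional protein, at 0.11, and Acadvl, the very-long-chain dehydrogenase, at 0.07. Cpt1c, Acadm (the medium-chain dehydrogenase) and Hadha (the hydratase and long-chain hydroxyacyl dehydrogenase) stood between 0.02 and 0.06. All 10 log2 differences were above 0, with a median of 0.12, beside 50.0% of all tested genes above 0 and a median of 0.00. Without the 3xTg-D mouse 2, the median of the 10 was 0.05.

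**Figure D2:**
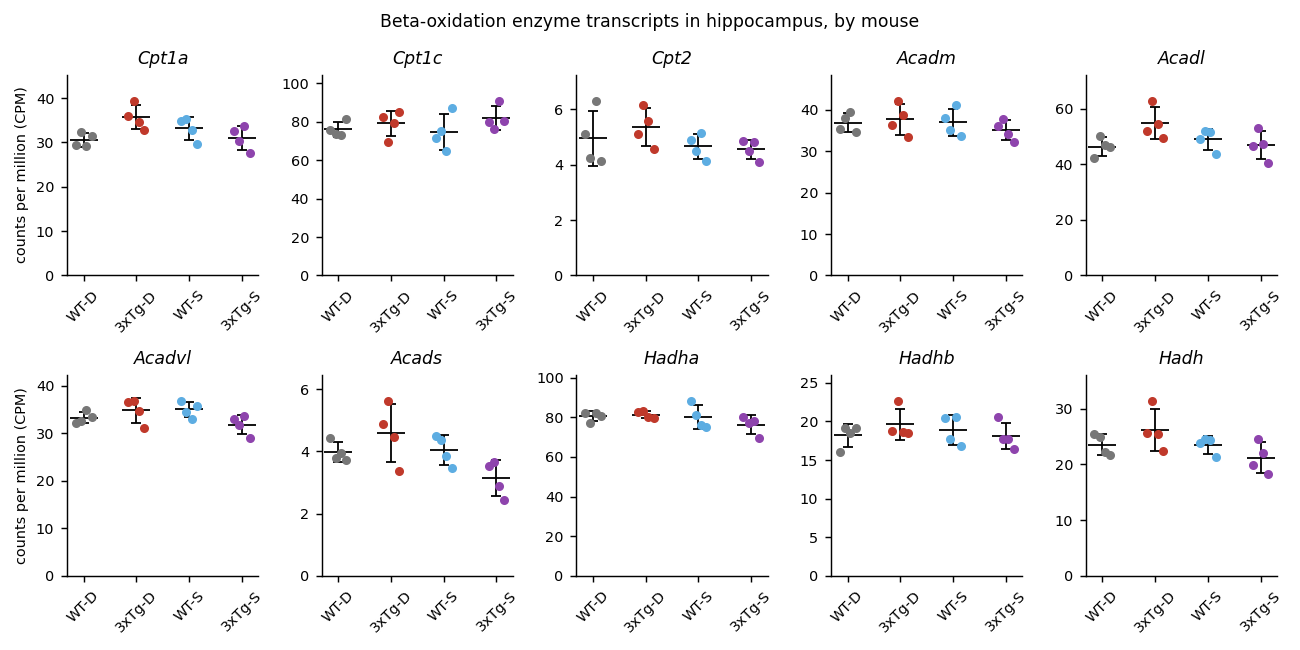
Each point is 1 mouse, in CPM on a linear axis from 0, with the group mean and SD as black lines (4 mice per group, 10 genes). Cpt1a in 3xTg-D, at 32.8 to 39.4 CPM, lies wholly above WT-D, at 29.2 to 32.3 CPM, and Acads in 3xTg-S, at 2.43 to 3.67 CPM, lies wholly below WT-D, at 3.73 to 4.44 CPM.

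The inhibitor was compared with vehicle within each genotype, to ask whether it moves these enzymes. In 3xTg mice, 9 of the 10 log2 differences between 3xTg-S and 3xTg-D were below 0, with a median of -0.17, beside 48.1% of all tested genes below 0 and a median of 0.01. None of the 10 reached the threshold, where 0.904% of all tested genes were called. At an adjusted p of 0.05, 0 members and 0.0% of all genes passed. In edgeR's quasi-likelihood test 4 members had an unadjusted p under 0.05, as had 6.33% of all tested genes, and both DESeq2 tests called 0 members. The groups overlapped for all 10, while 3.16% of all tested genes had groups that did not overlap. This comparison and the one of genotypes under vehicle share the 3xTg-D mice, so opposite signs in them are not independent.

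Acads showed the largest log2 difference between 3xTg-S and 3xTg-D. The 3xTg-D mice 1 to 4 stood at 4.89, 5.62, 4.46 and 3.38 CPM and the 3xTg-S mice 1 to 4 at 3.53, 3.67, 2.89 and 2.43 CPM. The lowest 3xTg-D mouse lay inside the 3xTg-S range, and the other 3 lay above it. The log2 difference was -0.55 (SE 0.19, 95% interval -0.98 to -0.12, unadjusted p = 0.0164, edgeR adjusted p = 0.722). With each of the 8 mice left out in turn, Acads was called 1 time, without the 3xTg-D mouse 4 (edgeR adjusted p = 0.494). That mouse had the lowest level of its group. Without the 3xTg-D mouse 2, the highest of its group, the log2 difference was -0.45 and Acads was not called. The counts behind these values ran from 45 to 134 per mouse, the lowest of the 10 genes.

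Hadh, which oxidises the hydroxy group of shorter chains, stood at 25.6, 31.3, 25.5 and 22.4 CPM in the 3xTg-D mice 1 to 4. It stood at 19.9, 24.6, 22.0 and 18.3 CPM in the 3xTg-S mice 1 to 4. The groups overlapped, and the log2 difference was -0.31 (SE 0.12, 95% interval -0.57 to -0.04, unadjusted p = 0.0280, edgeR adjusted p = 0.722). With each of the 8 mice left out in turn, Hadh was called 1 time, without the 3xTg-S mouse 2 (edgeR adjusted p = 0.204). That mouse had the highest level of its group. Without the 3xTg-D mouse 2, the highest of its group, the log2 difference was -0.22 and Hadh was not called.

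Acadl and Cpt1a, the members with the largest genotype differences under vehicle, had log2 differences of -0.22 (95% interval -0.44 to -0.01) and -0.20 (-0.39 to -0.02), each with an edgeR adjusted p = 0.722, between 3xTg-S and 3xTg-D. The 3xTg-S mice 1 to 4 stood at 46.7, 52.9, 47.4 and 40.6 CPM for Acadl. They stood at 32.6, 30.2, 33.8 and 27.6 CPM for Cpt1a, of which 1 lay within the 3xTg-D range. Cpt2 had a log2 difference of -0.24 with a wide interval (-0.53 to 0.06). Acadvl, Hadhb, Acadm and Hadha lay between -0.13 and -0.09.

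Cpt1c alone had a log2 difference above 0 between 3xTg-S and 3xTg-D, 0.05 (95% interval -0.13 to 0.23). CPT1C is the brain isoform of the outer-membrane enzyme, located mainly in the endoplasmic reticulum of neurons and with little transferase activity. Its levels were 82.3, 69.6, 79.5 and 84.8 CPM in the 3xTg-D mice 1 to 4 and 79.9, 76.0, 90.8 and 80.4 CPM in the 3xTg-S mice 1 to 4. The groups overlapped widely. Its exons overlap 366 bases of an antisense RNA, 6530437J22Rik, and Acadvl shares 1151 exonic bases with Dvl2 on the opposite strand. Hadha shares 75 exonic bases with Garem2, also on the other strand. The strand setting of the counting was not stated, so the counts of these 3 genes are uncertain.

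In WT mice the inhibitor moved no member past the threshold. The 10 log2 differences between WT-S and WT-D ran from -0.08 (Cpt2) to 0.12 (Cpt1a), with 6 above and 4 below 0 and a median of 0.02. Of all tested genes 0.188% were called, 0.0% at an adjusted p of 0.05. No member had an unadjusted p under 0.05 in edgeR, where 2.25% of all tested genes had one, and both DESeq2 tests called 0 members. The groups overlapped for all 10, and 1.48% of all tested genes had groups that did not. With same-numbered mice as a replicate block 115 genes were called in place of 31, and still 0 members. The intervals bound the size of any change in these mice. Hadha lay within -0.15 and 0.14, Acadvl within -0.05 and 0.21 and Cpt1a within -0.04 and 0.28, while Cpt2 (-0.44 to 0.28) and Acads (-0.28 to 0.33) were bounded less tightly. Cpt1a stood at 34.9, 35.3, 32.9 and 29.6 CPM in the WT-S mice 1 to 4, of which 3 lay above the highest WT-D mouse.

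**Figure D3:**
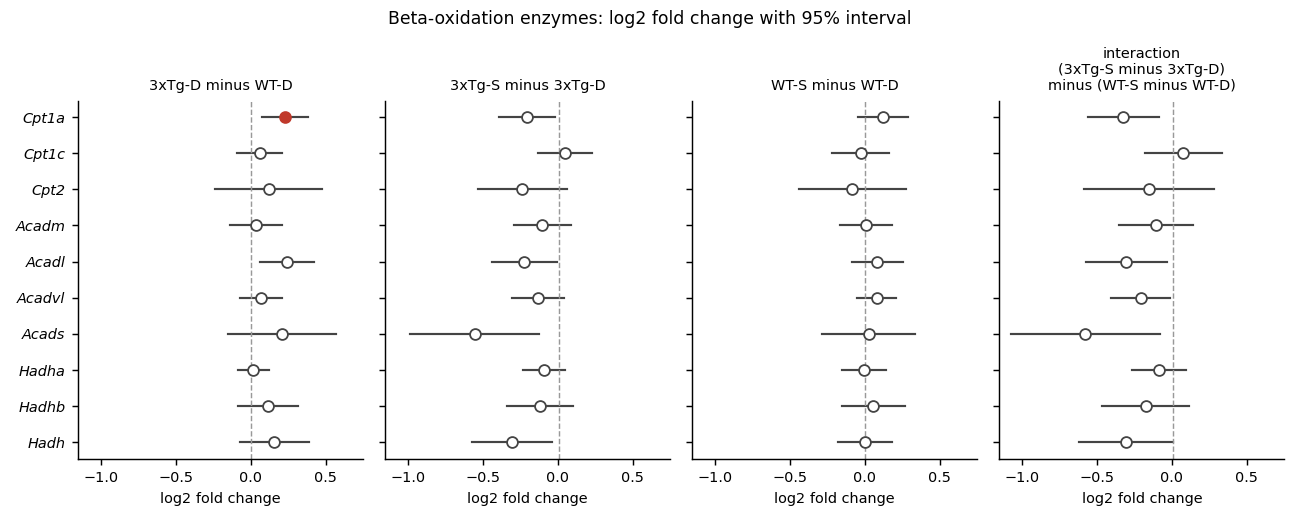
Points give the log2 fold change of each enzyme and lines its 95% interval in edgeR's quasi-likelihood test, with 4 mice per group, and the dashed line gives the median of all tested genes. The filled point is Cpt1a in 3xTg-D against WT-D (0.23), the only value called in these 4 panels.

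An interaction term over all 16 mice, the log2 change under the inhibitor in 3xTg minus that in WT, compared the response of the genotypes. Of the 10 interaction terms 9 were below 0, with a median of -0.19, beside 48.1% of all tested genes below 0 and a median of 0.01. None was called, where 0.595% of all tested genes were, and 0.0% of all genes passed at an adjusted p of 0.05. In all, 4 terms had an unadjusted p under 0.05 in edgeR, as had 4.98% of all tested genes. Cpt1a was nearest to the threshold, with a term of -0.32 (SE 0.11, 95% interval -0.56 to -0.09, unadjusted p = 0.0103, edgeR adjusted p = 0.788). The next were Acads with -0.58, Acadl with -0.30 and Acadvl with -0.21, all with an edgeR adjusted p of 0.788.

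The interaction of Cpt1a crossed the threshold under some settings and not under others. Both DESeq2 tests called 1 member, Cpt1a, with a DESeq2 adjusted p = 0.866 on median-ratio size factors. They called 114 and 115 of all 16475 tested genes. With the share of reads outside genes as a covariate Cpt1a was not called. Of the 16 fits that left out 1 mouse, 4 called it. These were without the WT-D mouse 2, the 3xTg-D mouse 4, the WT-S mouse 4 or the 3xTg-S mouse 3. Their edgeR adjusted p-values were 0.781, 0.593, 0.366 and 0.911. Without the 3xTg-D mouse 4, Acads and Acadvl were called too. Acadl was called without the WT-S mouse 4 or the 3xTg-S mouse 2. The share of all tested genes called in the fits that left out a mouse is not given here.

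Under the inhibitor, the genotypes were compared again, 3xTg-S with WT-S. Of the 10 log2 differences 9 were below 0 and Cpt1c stood at 0.12, with a median of -0.09, beside 49.6% of all genes below 0 and a median of 0.00. Without the 3xTg-S mouse 4 the median of the 10 was -0.05, and without the WT-S mouse 4 it was -0.13. None was called, where 4.26% of all tested genes were, and 0 members passed at an adjusted p of 0.05, where 1.40% of all genes did. No member had an unadjusted p under 0.05 in edgeR, where 10.7% of all tested genes had one, and both DESeq2 tests called 0. The groups overlapped for all 10, and 6.75% of all tested genes had groups that did not. Acads had a log2 difference of -0.38 (95% interval -0.77 to 0.00, edgeR adjusted p = 0.470) and Acadvl of -0.16 (-0.33 to 0.02, edgeR adjusted p = 0.534).

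Treated 3xTg mice were also set against vehicle-treated WT mice. Of the 10 log2 differences between 3xTg-S and WT-D, 7 were below 0 and the median was -0.09, beside 51.2% of all tested genes below 0 and a median of 0.00. The median was -0.04 without the 3xTg-S mouse 4, with 6 below 0, and -0.04 without the WT-D mouse 3. None was called, where 5.69% of all tested genes were, and 0 members passed at an adjusted p of 0.05, where 1.58% of all genes did. No member had an unadjusted p under 0.05 in edgeR, where 13.1% of all tested genes had one, and both DESeq2 tests called 0. Cpt1a (0.00, 95% interval -0.16 to 0.17) and Acadl (0.00, -0.19 to 0.19) stood at the WT-D level within these intervals. Acads was at 3.73 to 4.44 CPM in WT-D and 2.43 to 3.67 CPM in 3xTg-S, with no overlap, and its log2 difference was -0.36 (95% interval -0.73 to 0.00, edgeR adjusted p = 0.382). Of the 10 it was the only one whose groups did not overlap there, while 9.55% of all tested genes had groups that did not overlap.

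The enzymes varied together from mouse to mouse. Over the 16 mice, log2 CPM of the 9 genes other than Cpt1c correlated positively in all 36 pairs, with Pearson's r from 0.40 to 0.86 and a median of 0.59. The highest was between Acads and Hadh, and the pair with the shared start region, Hadha and Hadhb, had r = 0.47. Cpt1c correlated negatively with all 9 others, with r from -0.79 (Acadm) to -0.16. These correlations are descriptions over mice of 4 groups that share library depth and RNA quality between genes. Pairs of other genes were not compared, and no pair was recomputed with mice left out, so how ordinary such values are was not tested.

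A mean of the 10 standardised log2 levels placed 1 mouse at each end. The 3xTg-D mouse 2 had the highest mean, 1.54, and was the highest of the 16 mice for 7 of the 10 genes. The 3xTg-S mouse 4 had the lowest mean, -1.64, and was the lowest of the 16 for 8 of the 10. The other 14 mice lay between -0.57 and 0.66. The mice numbered 4 all lay low in this order of 16 mice. Under vehicle the WT mouse 4 ranked 12 and the 3xTg mouse 4 ranked 13, and under the inhibitor they ranked 15 and 16. Within WT-D, however, mouse 1 was lowest, at rank 14. What mice of the same number share was not tested. Within 3xTg-D, the mouse 4 was the lowest for 9 of the 10 genes. Leaving out the 3xTg-D mouse 2 moved the median log2 difference between 3xTg-S and 3xTg-D from -0.17 to -0.14, and leaving out the 3xTg-S mouse 4 moved it to -0.13. In each case 1 member had an unadjusted p under 0.05.

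Astrocyte markers varied with the enzymes from mouse to mouse. The mean log2 CPM of 10 astrocyte markers correlated with the mean of the 10 enzymes with Pearson's r = 0.90 and Spearman's rho = 0.82 over the 16 mice. With each mouse taken as its deviation from its group mean r was 0.88, and without the 2 mice farthest from the median of the markers it was 0.71. Of the 10 enzymes Acadl had the highest r with the markers, 0.92, then Hadh with 0.90, while Hadha had r = 0.48 and Cpt1c r = -0.44. Without the same 2 mice these were 0.83, 0.72, 0.07 and -0.33. Acadvl then went from 0.58 to 0.15 and Hadhb from 0.64 to 0.15, while Cpt1a, Cpt2, Acadm and Acads lay between 0.46 and 0.60. The link to these markers was thus uneven over the enzymes. With the ependymal markers r was 0.76 for Acads, 0.75 for Hadha, 0.61 for Acadvl and 0.56 for Hadh. For the other enzymes it ran from -0.40 (Cpt1c) to 0.41 (Cpt2). With the microglia markers it was highest for Hadh, 0.82, and lowest for Cpt1c, -0.39. All 10 astrocyte markers were detected in every mouse. Their summed level was 5924 to 6611 CPM in WT-D and 6249 to 8404 CPM in 3xTg-D. It was 5953 to 7038 CPM in WT-S and 6010 to 7196 CPM in 3xTg-S. The 3xTg-D mouse 2 was the highest of all.

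In the comparisons of 3xTg-D with WT-D and with 3xTg-S, the medians of the astrocyte markers had the same signs as those of the enzymes. Between 3xTg-D and WT-D 9 of the 10 markers had a log2 difference above 0, with a median of 0.19, and between 3xTg-S and 3xTg-D all 10 were below 0, with a median of -0.20. None was called in either comparison, and 4 and 2 of them had an edgeR p under 0.05, as had 12.6% and 6.33% of all tested genes. The median interaction term of the markers was -0.24. The part of the astrocyte markers in the differences of the enzymes was not tested. Oligodendrocyte and microglia markers had medians of the same signs in these 2 comparisons. Of 7 oligodendrocyte markers 6 were above 0 between 3xTg-D and WT-D, with a median of 0.19. Of these markers 3 were called, all 3 also at an edgeR adjusted p under 0.05, where 4.91% and 1.85% of all tested genes were. Between 3xTg-S and 3xTg-D all 7 were below 0, with a median of -0.35 and 3 called, where 0.904% of all tested genes were called. The summed level of the oligodendrocyte markers was 4377 to 5185 CPM in WT-D, 5675 to 6743 CPM in 3xTg-D, 3448 to 5318 CPM in WT-S and 4329 to 6763 CPM in 3xTg-S. The 8 microglia markers had medians of 0.26 (6 above 0) and -0.35 (all 8 below 0) with none called, and their sums ran from 341 to 597, 410 to 756, 347 to 451 and 336 to 501 CPM in the same group order. The 5 ependymal markers had medians of -0.25 between 3xTg-D and WT-D, with 1 called, and -0.71 between 3xTg-S and 3xTg-D, with 3 called. Beside them stand the same 4.91% and 0.904% of all tested genes called. The sums of the ependymal markers ran from 19.8 to 28.4, 15.97 to 24.2, 16.4 to 25.7 and 10.4 to 12.1 CPM. Over the 16 mice the mean of the enzymes had r = 0.60 with the microglia, 0.58 with the oligodendrocyte and 0.56 with the ependymal markers. All markers of these 3 lists were detected in every mouse, and their part in the differences was not tested. Neuron markers had r = -0.34 with the mean of the enzymes and rho = 0.02.

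The share of reads outside genes also moved with the enzymes, with r = -0.64 and rho = -0.51 over the 16 mice, and r = -0.59 for deviations from group means. The 3xTg-S mouse 4 had the highest share, 15.1%, and the 3xTg-D mouse 2 had 8.79%. With this share as a covariate, the median log2 difference of the 10 genes was 0.06 between 3xTg-D and WT-D, -0.12 between 3xTg-S and 3xTg-D, and -0.13 for the interaction, and no member was called in these 3 tests. Mitochondrially encoded transcripts were 7.07 to 9.60% of reads on genes. Their share had r = 0.65 and rho = 0.62 with the mean of the enzymes, and r = 0.75 for deviations from group means. By gene r ran from -0.78 (Cpt1c) to 0.865 (Acadm). Both shares went with mouse number. In each group mouse 4 had the lowest mitochondrially encoded share, at 7.07 to 7.62%. Mouse 2 had the lowest share of reads outside genes in each group, at 7.82 to 10.5%.

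**Figure D4:**
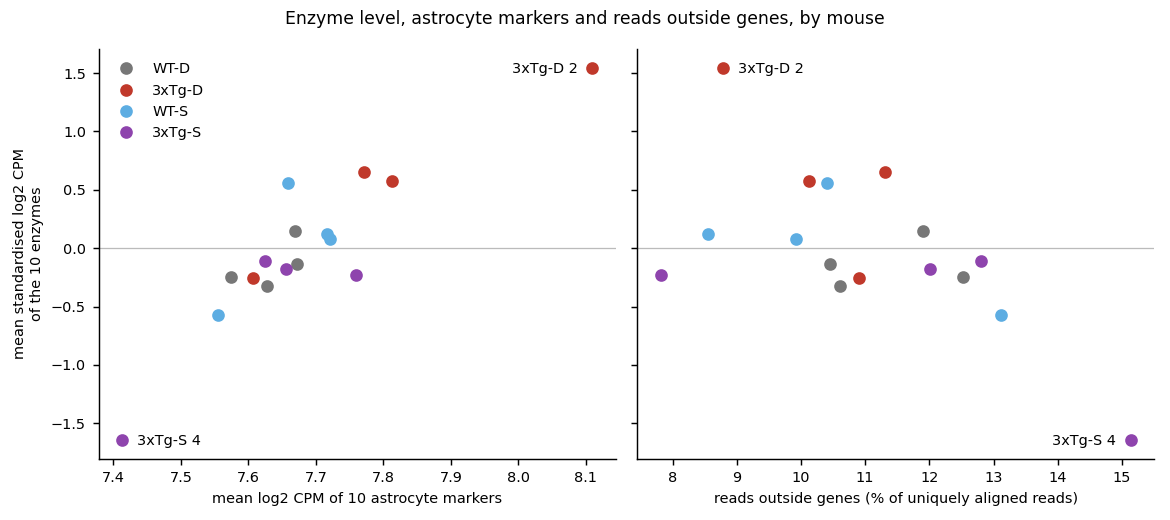
Each point is 1 of 16 mice, with the mean standardised log2 CPM of the 10 enzymes against the mean log2 CPM of 10 astrocyte markers (left) and against the percent of uniquely aligned reads outside genes (right). The 3xTg-D mouse 2 (1.54) and the 3xTg-S mouse 4 (-1.64) lie at opposite ends of both panels' vertical axis, and r is 0.90 on the left and -0.64 on the right.

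The genes whose levels over the 16 mice were most like the mean of the enzymes were Aldh6a1 (Pearson's r = 0.93), H3f3b (0.90), and Echs1, Slc39a12 and Erlin2 (each between 0.88 and 0.89). Aldh6a1 is a mitochondrial dehydrogenase of valine breakdown, and Echs1 is the short-chain enoyl-CoA hydratase of the beta-oxidation cycle itself. Aldh6a1 ranged from 96.2 to 141 CPM and Echs1 from 39.0 to 61.3 CPM. These are descriptions over mice that share the same libraries.

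Genes around the cycle were followed in 7 lists of 86 genes in all, of which 81 were tested. Between 3xTg-D and WT-D, 59 of the 81 had a log2 difference above 0, with a median of 0.07, and 4 were called, all higher in 3xTg-D. That is near the 4.91% of all tested genes called, so the count is no result about these lists. None passed at an edgeR adjusted p of 0.05, while both DESeq2 tests put 2 of the 81, Pdk4 and Abcd3, under it (0.00893 and 0.0318 on DEGES size factors). The called genes were Pdk4, Abcd3, Angptl4 and Acad11, and Pdk4 and Angptl4 are known PPAR targets. Of the 10 tested PPAR targets outside beta-oxidation, 7 had a log2 difference above 0 and 3 below. Pdk4, the kinase that shuts pyruvate dehydrogenase when fat is burnt, was 16.4 to 21.3 CPM in WT-D and 22.2 to 34.4 CPM in 3xTg-D, with no overlap. Its log2 difference was 0.57 (SE 0.14, unadjusted p = 0.00230, edgeR adjusted p = 0.0874), and it was called without each of the 8 mice in turn. With the share of reads outside genes as a covariate none of the 4 was called, and Pdk4 had a log2 difference of 0.48 (edgeR adjusted p = 0.226). With that covariate Pdk4 was called between 3xTg-S and WT-S (0.50, edgeR adjusted p = 0.0175) and between 3xTg-S and WT-D (0.36, edgeR adjusted p = 0.0365). In edgeR's test without a covariate Pdk4 was called in neither of those comparisons.

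Abcd3, a peroxisomal transporter of fatty acyl-CoA, was 93.3 to 103 CPM in WT-D and 108 to 113 CPM in 3xTg-D, with a log2 difference of 0.20 (SE 0.050, unadjusted p = 0.00272, edgeR adjusted p = 0.0955). Angptl4, an inhibitor of lipoprotein lipase, stood at 1.23 ± 0.317 and 2.09 ± 0.300 CPM (SD, n = 4 each), with a log2 difference of 0.77 (edgeR adjusted p = 0.154). Acad11, an acyl-CoA dehydrogenase of long-chain and hydroxylated substrates, stood at 22.5 ± 2.64 and 27.2 ± 1.39 CPM, with a log2 difference of 0.28 (edgeR adjusted p = 0.193). For all 3 every 3xTg-D mouse was above every WT-D mouse. With each of the 8 mice left out in turn, Abcd3 was called 5 times, Angptl4 3 times and Acad11 1 time.

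By list, the median log2 differences between 3xTg-D and WT-D ran from 0.04 (14 mitochondrial content genes such as citrate synthase) to 0.11 (10 tested PPAR targets outside beta-oxidation). The 21 other mitochondrial beta-oxidation enzymes had 16 above 0 and a median of 0.07, with 1 called, Acad11. The 13 tested peroxisomal genes had 10 above 0 and a median of 0.08, with 1 called, Abcd3. The 4 tested carnitine genes, the 14 regulators and the 5 ketone body enzymes had none called in that comparison. Of them 1, 1 and 2 had an edgeR p under 0.05, as had 12.6% of all tested genes. The mitochondrial content genes had none called in any of the 6 tests.

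Between 3xTg-S and 3xTg-D, 60 of the 81 genes had a log2 difference below 0, with a median of -0.06. The 21 other mitochondrial enzymes had 17 below 0 and a median of -0.11, with none called and 2 at an edgeR p under 0.05. Of all tested genes 0.904% were called and 6.33% had an edgeR p under 0.05. Bdh2, a cytosolic hydroxybutyrate dehydrogenase also known for making a mammalian siderophore, was the only one of the 81 genes called. Its level was 1.65, 1.93, 1.54 and 1.64 CPM in the 3xTg-D mice 1 to 4 and 1.24, 0.906, 1.22 and 0.702 CPM in the 3xTg-S mice 1 to 4, without overlap. The log2 difference was -0.75 (SE 0.23, unadjusted p = 0.00838, edgeR adjusted p = 0.722), and both DESeq2 tests called 0 of the 81. With each mouse left out in turn, Bdh2 was called 2 times of 8.

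Bdh2 was also called between 3xTg-S and WT-S (log2 difference -0.90, unadjusted p = 0.00314, edgeR adjusted p = 0.126) and between 3xTg-S and WT-D (-1.17, unadjusted p = 0.00041, edgeR adjusted p = 0.0338). These 3 comparisons share the 3xTg-S mice. It stood at 2.25 ± 0.286 CPM in WT-D and 1.87 ± 0.246 CPM in WT-S (SD, n = 4 each). In edgeR's test as described, the last value was the only one of the 81 genes over the 6 tests to pass at an adjusted p of 0.05, while both DESeq2 tests also put Rxra under it in the same comparison (0.0109 on DEGES size factors).

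Among the regulators, Ppargc1b, a coactivator of mitochondrial genes, was called in the interaction (0.72, SE 0.21, unadjusted p = 0.00334, edgeR adjusted p = 0.788). Its level was 6.81 ± 1.07 CPM in WT-D, 5.92 ± 0.704 CPM in 3xTg-D, 5.39 ± 0.535 CPM in WT-S and 7.73 ± 1.39 CPM in 3xTg-S (SD, n = 4 each), so its term had the sign opposite to that of 9 of the 10 enzymes. It was also called between 3xTg-S and WT-S (0.50, edgeR adjusted p = 0.193), as was Acaca (0.29, edgeR adjusted p = 0.161), which makes the malonyl-CoA that blocks CPT1. Rxra, the partner receptor of the PPARs, was called between 3xTg-S and WT-D (0.32, unadjusted p = 0.00121, edgeR adjusted p = 0.0591). In WT mice the inhibitor changed none of the 81 past the threshold, and both DESeq2 tests called 0. Of the 81, 2 had an edgeR p under 0.05, as had 2.25% of all tested genes.

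**Figure D5:**
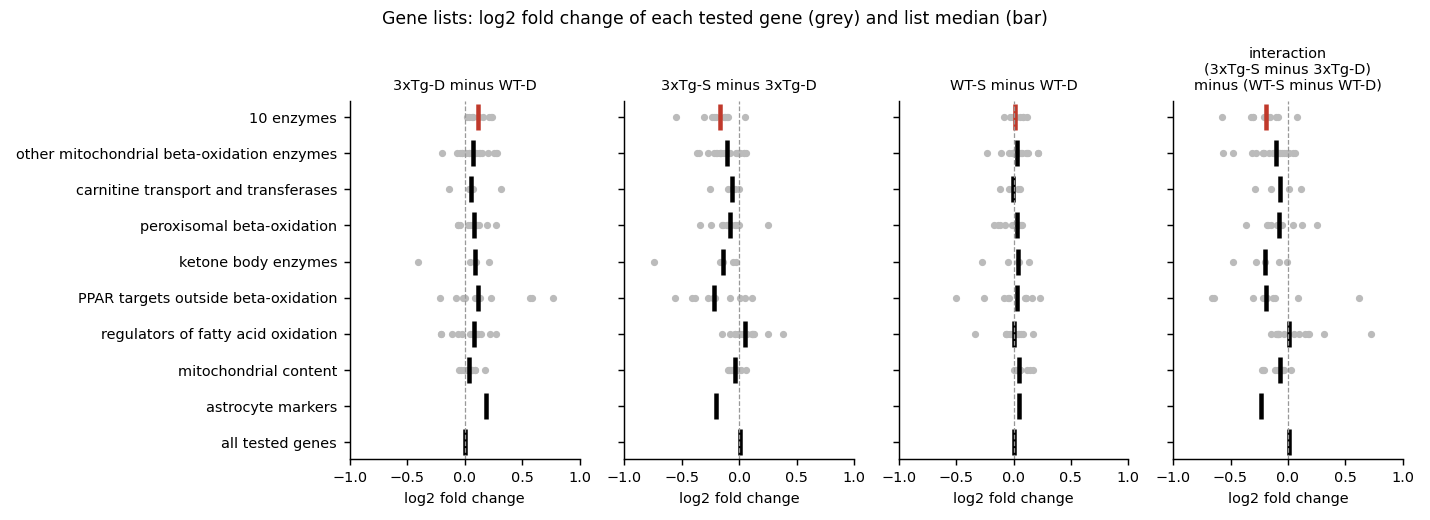
Vertical bars give the median log2 fold change of each gene list (red for the 10 enzymes) and grey points the tested genes of a list, with medians alone for astrocyte markers and all tested genes. The 10 enzymes' medians are 0.12, -0.17, 0.02 and -0.19 from left to right, and those of all tested genes 0.00, 0.01, 0.00 and 0.01.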

How the data were processed

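Total RNA of whole hippocampi was sequenced single-end after poly(A) selection with adapters carrying molecular identifiers. Per the labels and the study's methods, the authors trimmed reads with Trimmomatic 0.35 and aligned them with STAR 2.5.1b to GRCm38 with Gencode M23. They deposited raw counts per gene, not normalized. Strand setting and use of the identifiers were not given in the sources used here. The inhibitor is named ab142089 in 1 protocol field, and as the Cayman compound, taken here as CAY10566, in titles and treatment labels.

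Counts were tested with edgeR 4.0.16 (R 4.3.3): genes were kept by filterByExpr (minimum count 10, minimum total 15) over all 16 mice, scaled by TMM and fitted pairwise with 8 mice per fit, or with all 16 for the interaction. The 4 summary lines, 24.0 to 27.8% of reads in the table, were left out. A call was an unadjusted p no higher than 0.01, as in the study, with Benjamini-Hochberg values over all tested genes beside it. Every member was named in every comparison, and of other lists each called gene. The members and lists were chosen with earlier results of these data known. Positions, lengths and overlaps came from Gencode M21, since M23 was not used here, and start windows from RefSeq. A further item of the genotype label is not reported here. Nothing in the labels says that mice of a group were from separate litters or cages. Within groups all pairs of libraries differed beyond sampling noise (chi-square per degree of freedom 3.90 to 47.2).

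Alternatives were DESeq2 1.42.0 likelihood ratio tests with median-ratio or iterated (DEGES, 3 iterations) size factors, median-ratio factors in edgeR, no filter (33942 genes), at least 10 counts in every mouse (14293 genes), 1 fit over 16 mice, a replicate block, covariates for reads outside genes and for choroid plexus, an adjusted threshold, and each mouse left out. Leaving out the 2 mice with high choroid plexus markers was chosen after seeing the data. Numbers were taken to pair the mice where every same-numbered pair had a correlation of deviations above 0.1, which only WT-S vs WT-D met (r 0.114 to 0.340). There the replicate block called 0 members, as without it. The fits were tested on simulated data.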

Additional observations from a re-analysis of the deposited data

Results flagged for a closer look

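Of 40 sets of 4 mice (10 enzymes in 4 groups), 1 held a mouse far from the others. Hadhb in the 3xTg-D mouse 2 stood at 22.7 CPM while the other 3 mice of its group stood at 18.5 to 18.8 CPM, a gap of 0.917 of the group's whole range. The threshold at which a gap was named is lower, and it is passed by chance in about 1 of 20 sets. The same mouse was the highest of its group for 9 of the 10 enzymes and the highest of all mice for summed astrocyte markers, at 8404 CPM. Without it, the log2 difference of Hadhb between 3xTg-D and WT-D was 0.03 in place of 0.11.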

How the results depend on the processing

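With 4 mice a group, leaving out 1 mouse changed several calls. Acads and Cpt2 had the lowest counts, down to 45 and 74 in a mouse. For 3xTg-D vs WT-D, the main count of 1 called enzyme became 2 with no filter on low counts and 2 with the replicate block. It became 0 in 1 fit over all 16 mice, with reads outside genes or the choroid plexus score as a covariate, without the 2 mice with high choroid plexus markers (chosen after seeing the data), and at an adjusted p of 0.05. Over these settings the log2 difference of Cpt1a was 0.17 to 0.26. Of all tested genes, no filter called 1170 of 33942 and the block 944 of 16475, against 809 of 16475 in the main test. For 3xTg-S vs 3xTg-D, the main count of 0 became 2 with no filter, 1 in 1 fit over all 16 mice and 3 with the block. Of all tested genes these settings called 355 of 33942, 249 of 16475 and 1133 of 16475, against 149 of 16475 in the main test. For the interaction, 0 became 4 with the block. Either DESeq2 test, edgeR on median-ratio factors and no filter gave 1, Cpt1a. So did at least 10 counts in every mouse and the choroid plexus covariate. Of all tested genes the block called 624 of 16475 and no filter 208 of 33942, against 98 in the main test. The remaining settings named here called 88 to 115 genes. The other 3 comparisons kept 0 called enzymes under each alternative. Leaving out 1 mouse gave 0 to 2 called enzymes for 3xTg-D vs WT-D, 0 to 1 for 3xTg-S vs 3xTg-D and 0 to 3 for the interaction. The cause of these changes was not tested. Of 60 log2 differences (10 enzymes, 6 tests), 14 changed sign under some setting, 0 of them among the 10 with p under 0.05.

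Outside WT-S vs WT-D at least 1 same-numbered pair had a correlation of deviations of 0.1 or less (3xTg-D vs WT-D r -0.096 to 0.185, 3xTg-S vs 3xTg-D 0.016 to 0.391, 3xTg-S vs WT-S -0.101 to 0.496, 3xTg-S vs WT-D 0.062 to 0.257), so the numbers were not taken to pair the mice there. In 3xTg-S vs 3xTg-D and 3xTg-S vs WT-D all 4 correlations were still above 0. In those 4 comparisons 3, 4, 6 and 7 of 8 mice correlated best with their own number, a hint from the data and not from the design. With the replicate block, Acadl was called in 3xTg-D vs WT-D (edgeR adjusted p = 0.102). Acadl, Acads and Hadh were called in 3xTg-S vs 3xTg-D (lowest edgeR adjusted p = 0.0516, Hadh), and Cpt1a, Acadl, Acads and Hadh in the interaction. Each call was by edgeR and none held at an adjusted p of 0.05. The block called 944, 1133 and 624 of all 16475 tested genes in these 3 tests. At an adjusted p of 0.05 it passed 300, 204 and 0 genes, against 305, 0 and 0 in the main test.

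Of the 81 other pathway genes, the 4 called in 3xTg-D vs WT-D became 8 with the block, 1 with reads outside genes (Scp2, none of the 4), 2 with the choroid plexus covariate (1 of them, Acad11, among the 4), 1 (Pdk4) without the 2 choroid plexus mice and 0 at an adjusted p of 0.05. The 1 in 3xTg-S vs 3xTg-D became 0 with either DESeq2 test and at an adjusted p of 0.05. The 3 in 3xTg-S vs WT-S became 5 in 1 fit over all mice, 6 with the block, 6 with reads outside genes, 1 without the 2 choroid plexus mice and 0 at an adjusted p of 0.05. The 2 in 3xTg-S vs WT-D became 5 with reads outside genes and 1 at an adjusted p of 0.05. The 1 in the interaction became 5 with the block, 2 without the 2 choroid plexus mice, and 0 with reads outside genes and at an adjusted p of 0.05. Leaving out 1 mouse gave 1 to 8, 0 to 2, 0 to 3 (WT-S vs WT-D), 0 to 5, 2 to 5 and 1 to 6 called.

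Over all genes, the block moved the calls from 149 to 1133 (3xTg-S vs 3xTg-D), from 31 to 115 (WT-S vs WT-D), from 702 to 1339 (3xTg-S vs WT-S) and from 98 to 624 (interaction). No filter gave 355, 180, 1077 and 208 in the same 4. One fit over all mice gave 249 and 48 in the first 2. The choroid plexus covariate gave 92 in 3xTg-S vs 3xTg-D, and leaving out the 2 choroid plexus mice gave 56 in the interaction. In WT-S vs WT-D, at least 10 counts in every mouse gave 20 and reads outside genes gave 49.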
